A study of Homo sapiens with 6 samples.

Results

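The genes described here make, store and break down triglyceride: the acyltransferases and phosphatases of triglyceride synthesis, the intracellular lipases and their regulators, the proteins on the surface of lipid droplets, and the secreted lipases and uptake genes that work outside the cell. They were chosen by symbol, 42 genes of 27685 in the deposited table, and were sorted by pathway step. All 42 symbols were found, and 34 had enough reads to be tested. The libraries came from Caco-2, an established human colorectal tumour line whose cells take on features of absorptive enterocytes. In 3 libraries, labelled FABP1 antisense, the cells were derivatives carrying the construct hFABP1as, with the genotype given as a FABP1 knockdown. In the other 3, the vector control, the cells were mock-transfected with the empty plasmid pcDNA3 and labelled wild type. All cells were grown in the same serum-containing medium, polyA RNA was sequenced, and no time after transfection or number of clones is given in the labels, so a difference between the cell derivatives and an effect of the construct cannot be told apart.

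Cells make triglyceride by more than a single route. In most cells fatty acids are added in turn to glycerol phosphate, a phosphate is removed by a lipin, and a diacylglycerol acyltransferase adds the last fatty acid. In the absorptive cells of the intestine, the monoacylglycerol taken up after a meal is re-acylated directly by monoacylglycerol acyltransferases, and the product is packed into chylomicrons or held for a time in cytosolic lipid droplets. Droplets are coated by perilipins and emptied by a chain of lipases that removes the fatty acids in sequence. FABP1, the gene named by the construct, encodes a binding protein that carries fatty acids through the cytosol of enterocytes and hepatocytes.

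Libraries held 40351394 to 57979037 counts, and are named by the numbers 2, 3 and 4 in the column headers; values are given in that order, in CPM (counts scaled to effective library sizes). FABP1 itself was at 134, 147 and 122 CPM in the first group, labelled antisense, against 138, 102 and 121 CPM in the vector control (log2 fold change 0.16, 95% interval -0.10 to 0.42, edgeR adjusted p = 0.268). The counts assigned to FABP1 therefore did not differ by the test, and that group is named by its label throughout (antisense-labelled). As the strand setting used in counting is unknown, any reads from antisense RNA could have been included in these counts. Whether the sense mRNA or the protein was lowered was not tested. Intestinal epithelial markers (12 of 12 in the table) summed to 15900 to 18800 CPM in antisense-labelled and 14100 to 17400 CPM in vector control libraries, mostly from the keratins KRT8 and KRT18. VIL1, EPCAM and HNF4A were abundant in both groups, while CDX1 had 10 counts over the antisense-labelled group and 0 over the vector control. Of 11 tested intestinal markers, 6 rose and 2 fell. On the log2 scale KRT19 fell by 0.51 and VIL1 by 0.20. GPA33 rose by 7.87, LGALS4 by 4.77, KRT20 by 3.17, CDH17 by 1.32, CDX2 by 1.09 and KRT18 by 0.27. GPA33, LGALS4 and KRT20 were below 1 CPM in every vector control library. GPA33 had 1711 counts over the antisense-labelled group and 7 over the vector control. Of 11 adipocyte markers found, 6 were at 0 counts everywhere, ADIPOQ and LEP among them. The list summed to 8.94 to 10.2 CPM in antisense-labelled and 1.23 to 2.03 CPM in vector control libraries. All 3 tested adipocyte markers rose: PCK1 by 6.84, CAV1 by 3.55 and AQP7 by 0.94. PCK1 had 394 counts over the antisense-labelled group and 3 over the vector control. PLIN1 and CIDEA on this list are also members. Of 12 macrophage markers, 4 were at 0 counts everywhere, PTPRC among them, and the list summed to 71.2 to 72.8 CPM in antisense-labelled and 45.4 to 50.1 CPM in vector control libraries. Among the 7 tested, 4 rose and 2 fell, and the sum hides changes in both directions. MSR1 was at 11.2 in log2 fold change (888 counts over the antisense-labelled group and 0 over the vector control) and CSF1R at 3.6. CD14 was at -2.38 and AIF1 at -1.42. Liver markers, which Caco-2 cells also express, summed to 1750 to 1960 CPM in antisense-labelled and 3110 to 3520 CPM in vector control libraries (8 genes). Of 7 tested liver markers, 2 rose and 4 fell, with CPS1 at 4.04 and AHSG at -1.54 in log2 fold change. Fibroblast markers summed to 31.5 to 35.6 CPM in antisense-labelled and 39.4 to 42.3 CPM in vector control libraries (8 genes, 3 at 0). This sum hides opposite changes: of 5 tested, 2 rose and 2 fell, with LUM at 7.12 and PDGFRA at -5.78. Endothelial markers summed to 2.39 to 2.67 CPM in antisense-labelled and 0.833 to 1.42 CPM in vector control libraries (6 genes, 4 at 0). The 2 tested, PECAM1 and VWF, rose by 1.01 and 2.85. These markers differ between the same groups of libraries as the members do, and the part of any marker list in the results was not tested. Deviations from the group means moved together in antisense-labelled library 4 and vector control library 3 (correlation 0.268 across tested genes, the highest of 9 library pairs), and 15 of the 34 tested members, against 24.2% of all tested genes, were lowest in these libraries within their groups.

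Of the 34 tested members, 12 rose and 10 fell in antisense-labelled libraries at an adjusted p under 0.05, and 12 were not called (quasi-likelihood test of edgeR, with Benjamini-Hochberg adjustment over all 14640 genes tested). Over all tested genes, 27.7% were called higher, 27.3% lower and 55.0% in either direction, against 35.3%, 29.4% and 64.7% of the tested members. The groups of libraries did not overlap for 25 of the 34, against 62.7% of all tested genes. MOGAT2, PLIN4 and ANGPTL4, which the low-count filter favoured as described below, are among the 25, so nothing is read from this count. The median log2 fold change of the tested members was 0.08 (0.01 over all tested genes), and calls were divided between the directions. The 95% intervals given are not adjusted for the number of genes, so an interval can exclude 0 where the adjusted p does not pass. MOGAT2, PLIN4 and ANGPTL4 met the low-count filter only through the group where they were higher, so they are described but support no count. Of the 31 members that reached the cutoff of 0.227 CPM in every library, 11 rose and 10 fell (35.5% and 32.3%), against 26.6% and 28.4% of the 13263 tested genes that did so. Of the 34, 8 were called with a log2 fold change of at least 1 in size, against 14.9% of all tested genes. Among genes at the cutoff in every library it was 7 of 31, against 10.7%. The 8, MOGAT2 among them, were all upward, while the falls lay between -0.98 and -0.23, the largest just under this size. The shares of all tested genes were not divided by direction, so nothing is read from the direction of the 8. In bulk RNA, fewer cells that express a gene and less RNA per cell cannot be told apart.

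**Figure D1:**
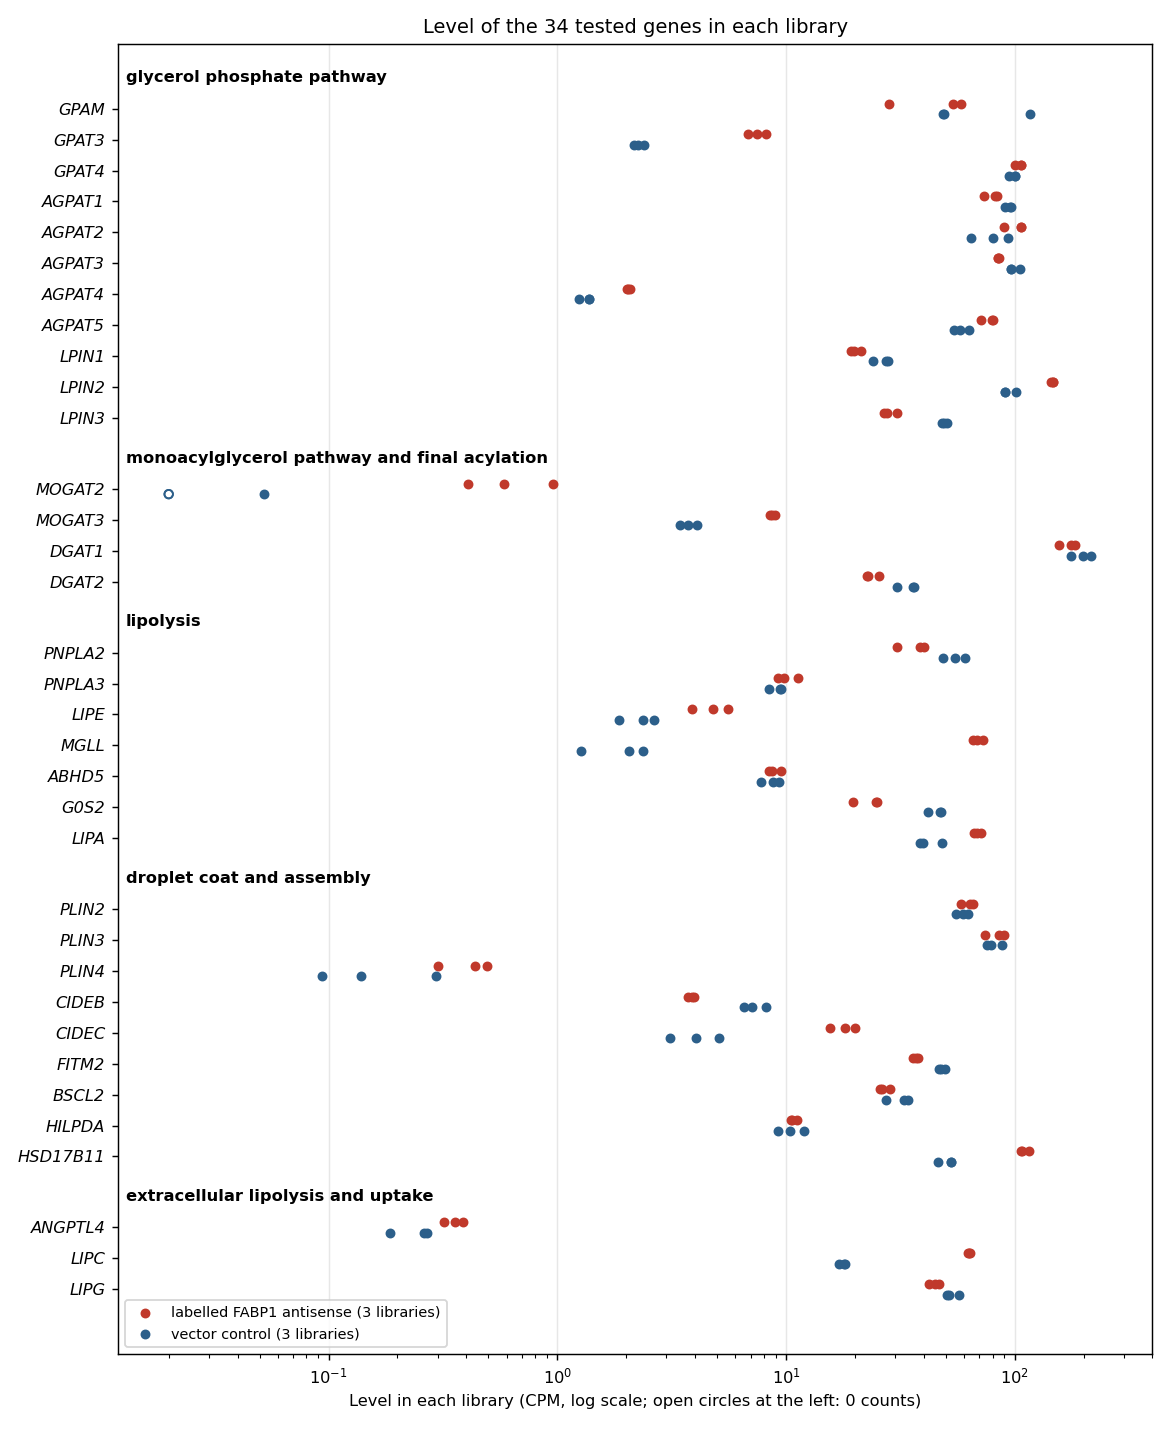
Level of each tested gene in each library (x axis, CPM on a log scale), by pathway step, with antisense-labelled libraries in red above vector control libraries in blue. MGLL sits at 65.8 to 72.4 CPM in antisense-labelled and 1.27 to 2.38 CPM in vector control libraries, while points of the perilipins PLIN2 and PLIN3 overlap.

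Promoter sequence is shown for members at the ends of the response for which a reference window was at hand: LIPC and CIDEC, which rose, and G0S2, which had the largest fall. Each line gives the 250 bases before the gene's start, 5′ to 3′ on the gene's strand, from RefSeq (GRCh38.p14). In capitals are matches to 3 motifs. The run TATAA resembles a TATA box. The nuclear receptor half-site is AGGTCA on either strand. The palindrome bound by HNF1 proteins, made of GTTAAT and its reverse complement around any base, was allowed 1 mismatch. Both strands were searched.
LIPC: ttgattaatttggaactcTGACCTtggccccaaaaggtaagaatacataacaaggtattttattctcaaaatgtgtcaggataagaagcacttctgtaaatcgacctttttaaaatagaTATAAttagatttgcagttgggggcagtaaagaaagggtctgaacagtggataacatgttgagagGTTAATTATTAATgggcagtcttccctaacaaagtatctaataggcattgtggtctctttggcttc
CIDEC: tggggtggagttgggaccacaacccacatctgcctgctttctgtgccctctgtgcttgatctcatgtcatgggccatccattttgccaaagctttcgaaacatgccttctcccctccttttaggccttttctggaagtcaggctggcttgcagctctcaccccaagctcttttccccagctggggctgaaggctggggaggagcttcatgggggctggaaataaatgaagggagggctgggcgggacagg
G0S2: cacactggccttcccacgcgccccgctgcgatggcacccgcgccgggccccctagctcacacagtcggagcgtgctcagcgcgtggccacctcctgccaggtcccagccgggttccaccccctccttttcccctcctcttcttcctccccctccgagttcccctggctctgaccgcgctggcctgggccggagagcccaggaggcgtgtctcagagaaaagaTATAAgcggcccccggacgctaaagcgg

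The LIPC window lies on the plus strand at chr15:58431741-58431990, the CIDEC window on the minus strand at chr3:9880254-9880503, and the G0S2 window on the plus strand at chr1:209675162-209675411. The CIDEC window is 1 of 2 listed for the gene, and neither start was found in a GENCODE v29 transcript of it, so its place as the promoter in use is uncertain. The windows differed in base composition, with G and C making up 36.0% of the LIPC window, 56.4% of the CIDEC window and 69.2% of the G0S2 window. In LIPC the palindrome lay at -66 to -54 relative to the start and the half-site at -232 to -227 on the other strand. The TATAA run lay at -131 to -127 in LIPC and at -28 to -24 in G0S2. At 1 mismatch the palindrome was found in 1 of 57 windows of the members (32 members have a window) and in 0.137% of all 35116 windows. The direct repeat of AGGTCA with any single base between the copies, which PPAR-RXR and HNF4 proteins bind, was found in 0 of the 57 windows at up to 1 mismatch, against 0.288% of all windows. The half-site was found in 3 of the 57 windows (5.26%), against 12.1% of all windows, and TATAA in 14 (24.6%), against 18.9%. The palindrome, half-site and TATAA searches were added after the sequences were seen. A match is a description of letters and not a bound site.

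The glycerol phosphate route changed by exchange among its isozymes more than in sum. Of 12 genes, 11 were tested: GPAT3, AGPAT4, AGPAT5 and LPIN2 rose, AGPAT1, AGPAT3, LPIN1 and LPIN3 fell, and GPAM, GPAT4 and AGPAT2 did not pass. GPAT2, whose product resembles the mitochondrial acyltransferase, had 0 counts in every library. The median log2 fold change of the tested genes was 0.09.

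GPAT3 (gene ID 84803), an acyltransferase of the endoplasmic reticulum that starts the route, was at 7.43, 8.16 and 6.79 CPM in antisense-labelled libraries, against 2.26, 2.40 and 2.17 CPM in vector control libraries. The groups lay far apart, and the rise was 1.71 on the log2 scale (SE 0.13, edgeR adjusted p = 9.75e-06). GPAT4, which does the same reaction in the same membrane, was at 107, 107 and 101 CPM in antisense-labelled and 99.8, 94.6 and 100.1 CPM in vector control libraries. All antisense-labelled libraries lay above the control for GPAT4, but the difference was small and did not pass (log2 fold change 0.09, 95% interval -0.06 to 0.24, edgeR adjusted p = 0.267).

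GPAM, the acyltransferase of the mitochondrial outer membrane, was the most variable of the abundant members. It was at 53.8, 28.1 and 58.1 CPM in antisense-labelled libraries and at 49.1, 117 and 48.6 CPM in vector control libraries. Libraries numbered 3 stood apart in both groups, low in the antisense-labelled group and high in the vector control, and the groups overlapped. Its log2 fold change of -0.62 (SE 0.37, 95% interval -1.46 to 0.23) did not pass (edgeR adjusted p = 0.191, from 0.106 to 0.841 over the alternatives). Without vector control library 3 it was -0.07 (edgeR adjusted p = 0.841), and without antisense-labelled library 3 it was -0.35 (edgeR adjusted p = 0.468). Per kilobase of transcript, GPAT3 made up 10.7% ± 1.78 of the summed level of GPAM, GPAT3 and GPAT4 in antisense-labelled libraries and 3.18% ± 0.462 in vector control libraries, with no overlap (SD, n = 3). The sum itself was 26.8 ± 2.04 CPM per kilobase in antisense-labelled and 27.7 ± 5.75 in vector control libraries, which overlapped.

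The next step, acylation of lysophosphatidate, held small changes in both directions. AGPAT5 was at 80.2, 71.2 and 79.3 CPM in antisense-labelled libraries, against 57.5, 63.0 and 54.1 CPM in vector control libraries. These groups did not overlap, and AGPAT5 rose by 0.40 (SE 0.08, edgeR adjusted p = 0.00338). AGPAT1, an isozyme of the endoplasmic reticulum, was at 81.7, 83.5 and 73.5 CPM in antisense-labelled and 95.6, 90.8 and 95.8 CPM in vector control libraries. AGPAT3 was at 85.8, 84.2 and 84.7 CPM in antisense-labelled and 96.5, 96.4 and 105.8 CPM in vector control libraries. Both genes were lower in every antisense-labelled library than in any control library, and fell by 0.24 (SE 0.07) and 0.23 (SE 0.07), with edgeR adjusted p of 0.0201 and 0.0174.

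These falls were near the threshold. AGPAT1 lost its call without antisense-labelled library 4 (-0.19, edgeR adjusted p = 0.0669) or vector control library 2 (-0.23, edgeR adjusted p = 0.0626), within 0.00723 to 0.0776 over all alternatives. Its exons overlap those of PPT2-EGFL8 on the opposite strand, at 5.14 CPM in antisense-labelled and 3.81 CPM in vector control libraries. AGPAT3 lost its call without antisense-labelled library 2 or 3 or vector control library 4 (edgeR adjusted p = 0.0515, 0.0620 and 0.0507), within 0.00633 to 0.0788. AGPAT4, a low member at 2.02 to 2.08 CPM in antisense-labelled and 1.25 to 1.37 CPM in vector control libraries, rose by 0.62 (SE 0.18, edgeR adjusted p = 0.0190). It lost its call without antisense-labelled library 3 or 4 or vector control library 2 (edgeR adjusted p = 0.0527, 0.0542 and 0.0569), and in DESeq2's test (adjusted p = 0.0559), within 0.0124 to 0.0730.

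AGPAT2, whose loss in people causes a lack of body fat, was at 106, 106 and 89.6 CPM in antisense-labelled and 80.7, 64.3 and 93.6 CPM in vector control libraries. The groups overlapped and the difference did not pass (log2 fold change 0.34, SE 0.13, edgeR adjusted p = 0.0562). It passed in 6 of 13 alternative fits, among them those without antisense-labelled library 4 (0.42, edgeR adjusted p = 0.0343) and without vector control library 4 (0.47, edgeR adjusted p = 0.0141), within 0.0141 to 0.147 over all. Per kilobase, AGPAT2 was the most abundant of the 5 isozymes in both groups, at 48.5% ± 1.84 of their sum in antisense-labelled and 41.1% ± 4.31 in vector control libraries (SD, n = 3). AGPAT1 made up 26.2% ± 0.481 in antisense-labelled and 33.5% ± 1.87 in vector control libraries (SD, n = 3).

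The lipins, which remove the phosphate to give diacylglycerol and also act on gene regulation in the nucleus, showed the clearest exchange. LPIN2 (gene ID 9663) was at 144, 147 and 147 CPM in antisense-labelled libraries, against 90.2, 101 and 90.6 CPM in vector control libraries. It was higher in all 3 antisense-labelled libraries and rose by 0.64 (SE 0.07, edgeR adjusted p = 8.89e-05). LPIN3 was at 26.9, 30.5 and 27.6 CPM in antisense-labelled and 49.1, 48.0 and 50.7 CPM in vector control libraries, a fall of 0.80 (SE 0.08, edgeR adjusted p = 4.27e-05). LPIN1, at 19.3, 21.2 and 19.8 CPM in antisense-labelled and 27.9, 27.3 and 23.9 CPM in vector control libraries, fell by 0.39 (SE 0.09, edgeR adjusted p = 0.00485). None of the 3 lipins overlapped between the groups. Per kilobase, LPIN2 made up 69.8% ± 1.11 of lipin transcripts in antisense-labelled and 48.1% ± 1.79 in vector control libraries, and LPIN3 19.8% ± 0.854 in antisense-labelled and 37.1% ± 1.96 in vector control libraries (SD, n = 3). Their sum was 33.7 ± 0.843 CPM per kilobase in antisense-labelled and 31.3 ± 0.844 in vector control libraries, 1.08 times as high in antisense-labelled libraries. Exons of LPIN3 overlap those of EMILIN3 on the opposite strand, which was at 0.0149 CPM in antisense-labelled and 0.965 CPM in vector control libraries, and the strand setting of the counting was not stated.

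**Figure D2:**
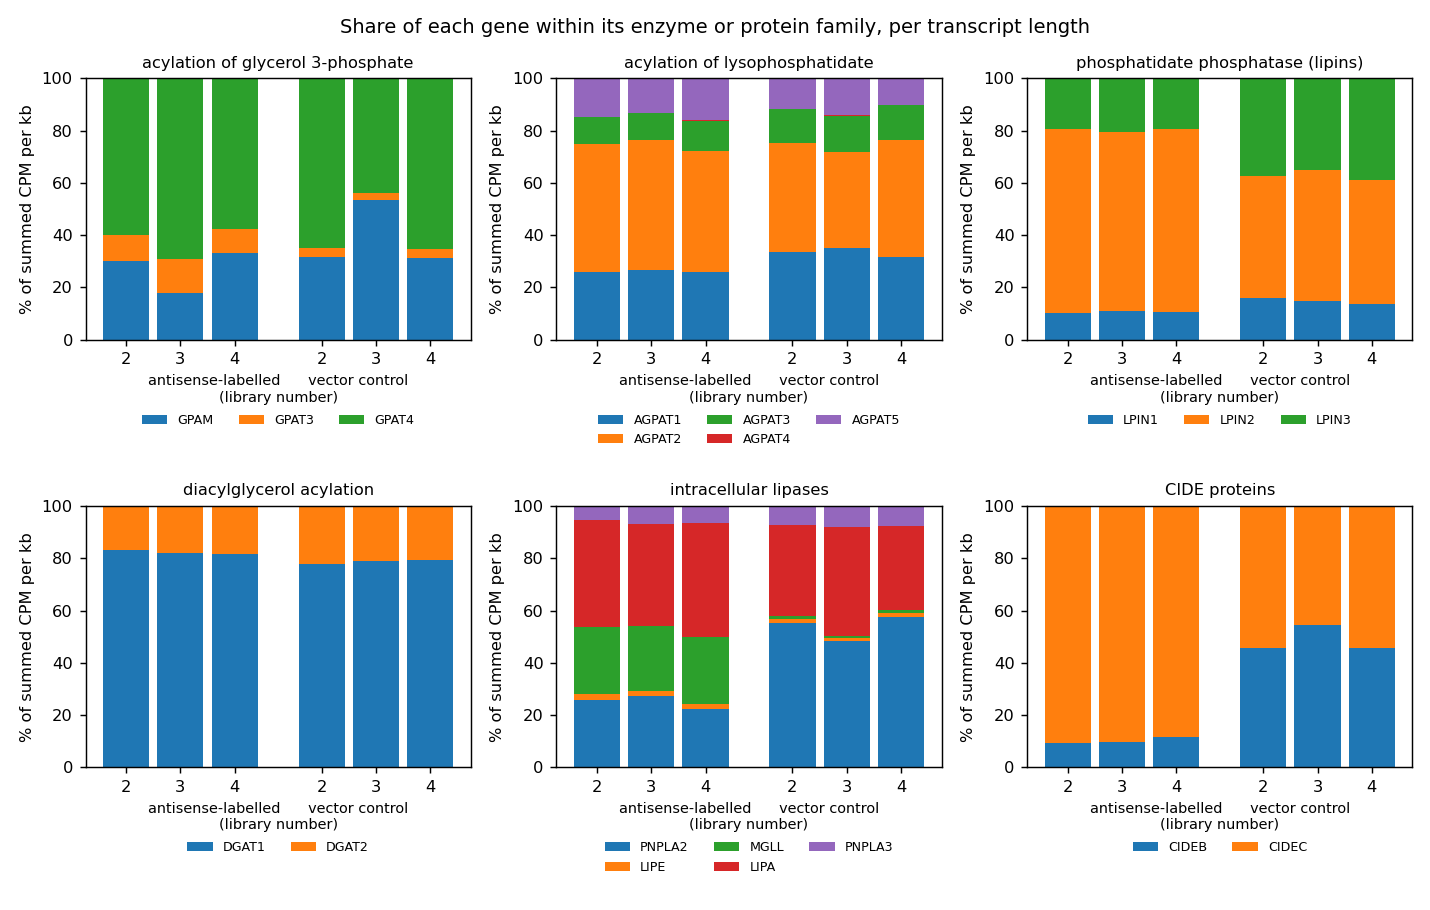
Share of each gene in the summed level of its family, per kilobase of reference transcript (y axis, %), with 1 bar for each antisense-labelled library on the left and each vector control library on the right. LPIN2 averages 69.8% of the lipins in antisense-labelled and 48.1% in vector control libraries, and MGLL 25.4% of the intracellular lipases in antisense-labelled and 0.994% in vector control libraries.

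Of the monoacylglycerol acyltransferases, the enzymes of the intestinal route, MOGAT3 rose and MOGAT2 was too scarce in the vector control for a test to bear on it, while of the genes of the last step DGAT2 fell and DGAT1 did not pass. MOGAT3 (gene ID 346606) was at 8.96, 8.50 and 8.69 CPM in antisense-labelled libraries and at 3.72, 4.07 and 3.45 CPM in vector control libraries. The groups were well separated and MOGAT3 rose by 1.22 (SE 0.11, edgeR adjusted p = 3.08e-05). MOGAT2, the main monoacylglycerol acyltransferase of the intestine, was near the limit of detection, at 0.583, 0.962 and 0.409 CPM in antisense-labelled libraries and 0.0521, 0 and 0 CPM in vector control libraries. That is 90 counts over the antisense-labelled group and 3 over the vector control, a ratio of 29.8 (95% counting interval 9.89 to 147, exact, counting error only). All 3 control counts came from library 2. The gene entered the fit only through its antisense-labelled counts and is absent from the fit on a mean CPM of at least 1, so this ratio is given as a description. At 7.50% ± 3.15 of their summed level per kilobase in antisense-labelled and 0.502% ± 0.870 in vector control libraries (SD, n = 3), MOGAT2 was the minor transcript of the pair. The sum was 2.51 times as high in antisense-labelled libraries.

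DGAT2, an acyltransferase that works at droplets and the endoplasmic reticulum, was at 22.8, 25.5 and 22.6 CPM in antisense-labelled and 36.3, 30.4 and 36.1 CPM in vector control libraries. Every antisense-labelled library lay below the control, and DGAT2 fell by 0.54 (SE 0.10, edgeR adjusted p = 0.00146). DGAT1, the other, unrelated enzyme of this reaction, was at 175, 183 and 156 CPM in antisense-labelled and 199, 176 and 216 CPM in vector control libraries, and did not pass (log2 fold change -0.20, 95% interval -0.42 to 0.01, edgeR adjusted p = 0.101). It passed without vector control library 3 (-0.28, edgeR adjusted p = 0.0256), within 0.0256 to 0.275 over the alternatives. Exons of DGAT1 overlap those of HSF1 on the opposite strand, at 89.9 CPM in antisense-labelled and 85.7 CPM in vector control libraries. Per kilobase, DGAT1 made up 82.3% ± 0.836 of the pair in antisense-labelled and 78.7% ± 0.752 in vector control libraries (SD, n = 3).

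Of the 7 genes of lipolysis, all tested, MGLL, LIPE and LIPA rose, PNPLA2 and G0S2 fell, and PNPLA3 and ABHD5 did not pass. Among monoacylglycerol hydrolases outside the 42 genes, ABHD12 fell by 0.50 (edgeR adjusted p = 0.00211) and ABHD6 rose by 0.97 (edgeR adjusted p = 0.000146), both named after their values were seen. MGLL (gene ID 11343), the monoglyceride lipase that frees the last fatty acid and also breaks down an endocannabinoid, was at 72.4, 68.3 and 65.8 CPM in antisense-labelled libraries, against 2.05, 1.27 and 2.38 CPM in vector control libraries. The lowest antisense-labelled library lay far above the highest control library. MGLL rose by 5.17 on the log2 scale (SE 0.18, interval at 95% of 4.76 to 5.57, edgeR adjusted p = 8.40e-08), a ratio of means of 36.2, and 1.47% of all tested genes had a larger change in size. In every alternative fit MGLL was called higher, at 4.96 to 5.34.

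LIPE, the hormone-sensitive lipase that acts on diacylglycerol and steryl esters, was at 5.59, 4.81 and 3.89 CPM in antisense-labelled and 2.64, 1.86 and 2.38 CPM in vector control libraries. The groups did not overlap, and LIPE rose by 1.05 (SE 0.19, edgeR adjusted p = 0.00181). LIPA, the acid lipase of lysosomes, was at 71.0, 66.0 and 68.6 CPM in antisense-labelled and 39.6, 47.9 and 38.5 CPM in vector control libraries, a rise of 0.71 (SE 0.09, edgeR adjusted p = 0.000296).

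PNPLA2, the adipose triglyceride lipase that removes the first fatty acid, was at 38.6, 39.9 and 30.4 CPM in antisense-labelled and 54.7, 48.7 and 60.7 CPM in vector control libraries. Its groups were close but did not overlap, and it fell by 0.59 (SE 0.12, edgeR adjusted p = 0.00317). G0S2 (gene ID 50486), the inhibitor of that lipase, was at 25.1, 24.6 and 19.6 CPM in antisense-labelled and 47.3, 41.8 and 47.5 CPM in vector control libraries. G0S2 fell by 0.98 (SE 0.11, edgeR adjusted p = 0.000101), the largest fall among the tested members. ABHD5, which activates PNPLA2, was at 8.43 to 9.49 CPM in antisense-labelled and 7.75 to 9.36 CPM in vector control libraries and did not pass (0.04, 95% interval -0.20 to 0.29, edgeR adjusted p = 0.747). PNPLA3, a relative of PNPLA2 on droplets, was at 9.25 to 11.3 CPM in antisense-labelled and 8.39 to 9.48 CPM in vector control libraries and did not pass either (0.15, 95% interval -0.09 to 0.40, edgeR adjusted p = 0.255).

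Per kilobase, PNPLA2 made up 25.6%, 27.2% and 22.3% of the summed level of 5 intracellular lipases in antisense-labelled libraries and 55.1%, 48.4% and 57.7% in vector control libraries. MGLL made up 25.4% ± 0.504 in antisense-labelled and 0.994% ± 0.280 in vector control libraries, and the groups overlapped for neither gene (SD, n = 3). LIPA made up 41.4% ± 2.34 in antisense-labelled and 36.1% ± 4.97 in vector control libraries, which overlapped (SD, n = 3). The sum of these lipases (PNPLA2, LIPE, MGLL, LIPA and PNPLA3) was 1.42 times as high in antisense-labelled libraries. It pools changes in both directions. In CPM per kilobase, MGLL was at 15.1 in antisense-labelled and 0.417 in vector control libraries and LIPA at 24.6 and 15.1. PNPLA2 was at 15.0 in antisense-labelled and 22.5 in vector control libraries.

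Of 14 genes of the droplet coat and of droplet assembly, 9 were tested: CIDEC and HSD17B11 rose, CIDEB and FITM2 fell, and PLIN2, PLIN3, PLIN4, BSCL2 and HILPDA did not pass. Those called were 44.4% of the 9 tested, against 55.0% of all tested genes. In the other steps the share was 72.7% of 11 in the glycerol phosphate pathway and 75.0% of 4, with MOGAT2, in the monoacylglycerol pathway and final acylation. It was 71.4% of 7 in lipolysis and 66.7% of 3 in extracellular lipolysis and uptake. With so few genes in a step, nothing is read from these shares. Without vector control library 3 the count of the droplet step was 4 higher and 3 lower, with PLIN4, BSCL2 and HSD17B13 added. PLIN4 and HSD17B13 entered that fit through their antisense-labelled counts, with 24 and 2 counts over the 3 vector control libraries. They are no support for a count of rises. PLIN2, the main droplet coat protein outside fat cells, was at 65.6, 63.7 and 57.9 CPM in antisense-labelled and 62.4, 55.2 and 59.3 CPM in vector control libraries. PLIN3, a coat protein that moves to droplets from the cytosol, was at 89.5, 85.3 and 74.3 CPM in antisense-labelled and 79.0, 75.9 and 88.0 CPM in vector control libraries. Both overlapped between the groups, with log2 fold changes of 0.08 (95% interval -0.10 to 0.26, edgeR adjusted p = 0.414) and 0.04 (95% interval -0.17 to 0.24, edgeR adjusted p = 0.762). The intervals exclude a change of 1 on the log2 scale for these 2 coat genes.

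The other perilipins were scarce. PLIN1, the coat protein of fat cells, had 6 counts over the antisense-labelled group and 16 over the vector control, and PLIN5, of oxidative tissues, 0 and 5 counts. PLIN4 was at 0.437, 0.492 and 0.302 CPM in antisense-labelled and 0.139, 0.294 and 0.0932 CPM in vector control libraries. Its log2 fold change of 1.23 (SE 0.48) did not pass (edgeR adjusted p = 0.0577). It passed without vector control library 3 (1.76, edgeR adjusted p = 0.0239), within 0.0182 to 0.174 over the alternatives, and its exons overlap those of HDGFL2 on the opposite strand, at 78.1 CPM in antisense-labelled and 99.2 CPM in vector control libraries.

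CIDEC (gene ID 63924), whose protein passes lipid between droplets so that they grow, was at 19.9, 18.1 and 15.6 CPM in antisense-labelled libraries, against 4.05, 3.11 and 5.08 CPM in vector control libraries. Its groups did not overlap, and it rose by 2.13 (SE 0.17, edgeR adjusted p = 1.39e-05). The table also counts CIDECP, a pseudogene of CIDEC, and reads could be split between them, so the size of the rise is uncertain. CIDECP was at 3.98, 3.85 and 2.56 CPM in antisense-labelled and 5.31, 3.28 and 5.47 CPM in vector control libraries and did not pass (-0.45, SE 0.24, edgeR adjusted p = 0.144). The sum of CIDEC and CIDECP, which does not depend on how reads were split between them, was 21.3 ± 2.95 CPM in antisense-labelled and 8.77 ± 2.14 CPM in vector control libraries (SD, n = 3), without overlap, a ratio of 2.43 in place of 4.38 for CIDEC alone.

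CIDEB, the family member that serves lipoprotein lipidation in liver, moved the other way, at 3.73 to 3.96 CPM in antisense-labelled and 6.57 to 8.18 CPM in vector control libraries. It fell by 0.91 (SE 0.12, edgeR adjusted p = 0.000326), with exons that overlap those of NOP9 on the opposite strand, at 67.5 CPM in antisense-labelled and 76.6 CPM in vector control libraries. CIDEA had 0 counts in every library. Per kilobase, CIDEC made up 89.8% ± 1.33 of the sum of CIDEB and CIDEC in antisense-labelled and 51.4% ± 5.03 in vector control libraries (SD, n = 3), a share that also depends on the split with CIDECP.

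HSD17B11 (gene ID 51170), a dehydrogenase found on droplets, was at 107, 107 and 116 CPM in antisense-labelled libraries, against 52.5, 52.5 and 46.0 CPM in vector control libraries. The groups were well apart, and the gene rose by 1.13 (SE 0.08, edgeR adjusted p = 5.70e-06). Its relative HSD17B13, a droplet protein of hepatocytes, had 30 counts over the antisense-labelled group and 2 over the vector control, a ratio of 14.9 (95% counting interval 3.78 to 129), and did not meet the low-count filter with all libraries. FITM2, which helps droplets bud from the endoplasmic reticulum, was at 37.9, 36.9 and 35.8 CPM in antisense-labelled and 46.8, 47.8 and 49.6 CPM in vector control libraries, and fell by 0.38 (SE 0.07, edgeR adjusted p = 0.00155). Its relative FITM1 had 7 counts over the antisense-labelled group and 0 over the vector control.

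BSCL2, which encodes seipin of the droplet-forming site, was at 28.4, 26.2 and 25.7 CPM in antisense-labelled and 32.9, 27.4 and 34.3 CPM in vector control libraries and did not pass (-0.24, SE 0.10, edgeR adjusted p = 0.0690). It passed without vector control library 3 (-0.33, edgeR adjusted p = 0.0129), within 0.0129 to 0.197 over the alternatives. BSCL2 shares exons with the readthrough gene HNRNPUL2-BSCL2 (log2 fold change -0.56, edgeR adjusted p = 0.129), so its reads could be split. HILPDA, a droplet protein induced by low oxygen that inhibits PNPLA2, was at 10.5 to 11.2 CPM in antisense-labelled and 9.24 to 12.0 CPM in vector control libraries and did not pass (0.03, 95% interval -0.22 to 0.28, edgeR adjusted p = 0.819).

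**Figure D3:**
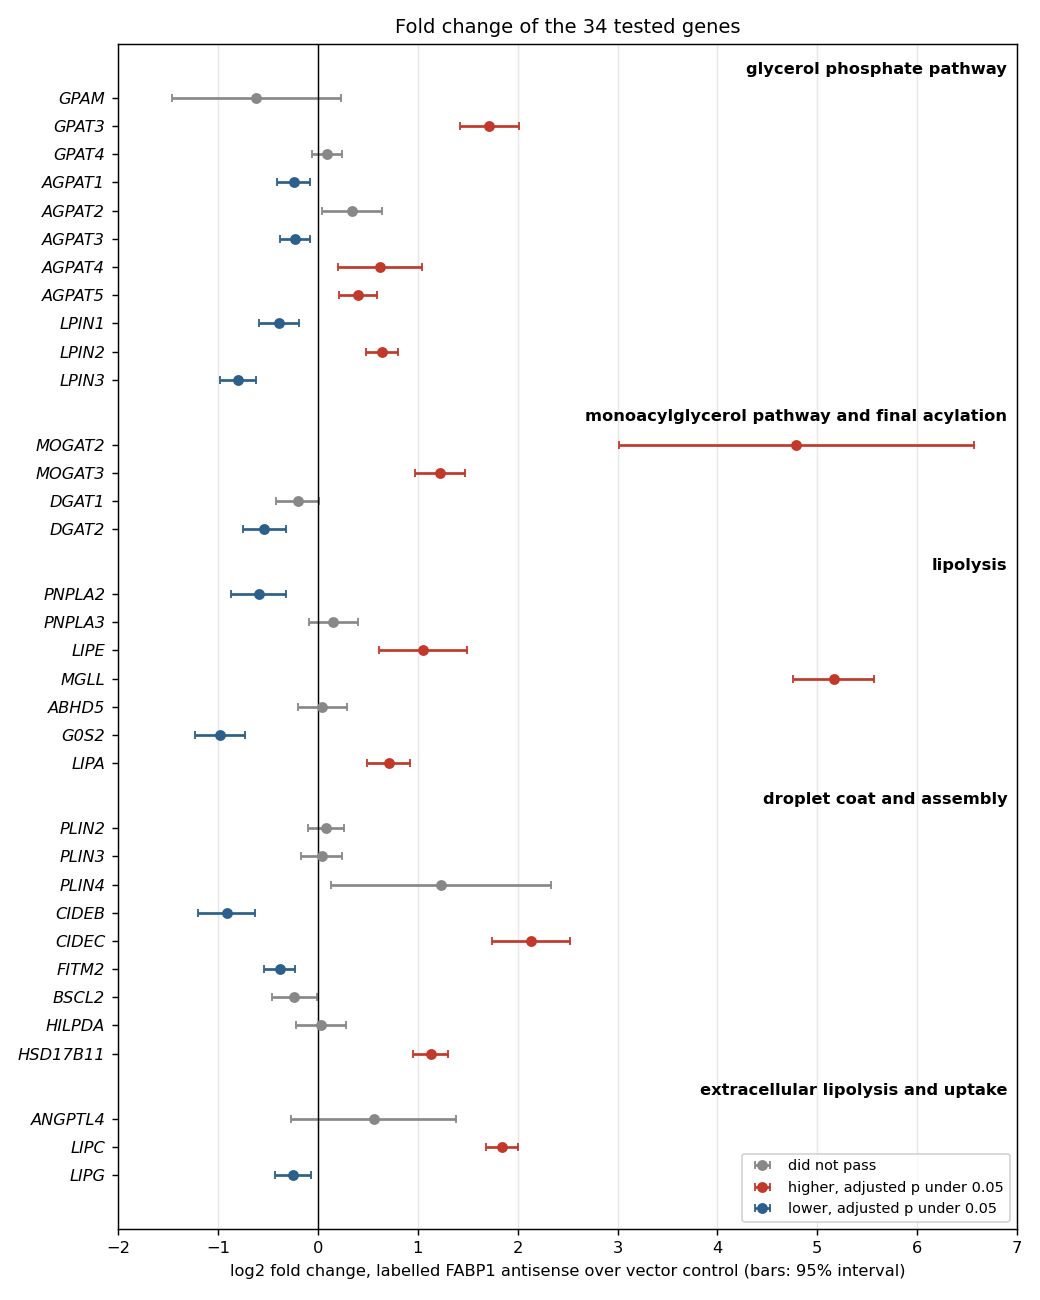
Log2 fold change of the tested genes, antisense-labelled over vector control (x axis), by pathway step, with 95% intervals as bars and the call in colour. MGLL stands at 5.17, the interval of MOGAT2 (3.01 to 6.57) rests on 3 counts in the vector control and is no support for a rise, and the intervals of PLIN2, PLIN3, HILPDA and ABHD5 include 0.

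Outside the cell, the gene of hepatic lipase rose and that of endothelial lipase fell slightly. LIPC (gene ID 3990), which hydrolyses lipids of circulating lipoproteins, was at 64.0, 63.4 and 62.4 CPM in antisense-labelled libraries. In vector control libraries it was at 18.1, 17.0 and 17.8 CPM. Libraries of each group were close to each other and far from the other group, and LIPC rose by 1.84 (SE 0.07, edgeR adjusted p = 1.43e-07). LIPG, the endothelial lipase, was at 44.9, 42.2 and 46.5 CPM in antisense-labelled and 51.4, 57.1 and 50.5 CPM in vector control libraries. LIPG fell by 0.25 (SE 0.08, edgeR adjusted p = 0.0242), and its call was lost without antisense-labelled library 2 or 3 or vector control library 3 (edgeR adjusted p = 0.0605, 0.104 and 0.0573), within 0.0148 to 0.104. Per kilobase, LIPC made up 75.9% ± 1.04 of the pair in antisense-labelled and 42.5% ± 2.37 in vector control libraries, and their sum was 2.01 times as high in antisense-labelled libraries (SD, n = 3).

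The genes of peripheral fatty acid capture were at or near 0. LPL, the lipoprotein lipase of fat and muscle, had 0 counts in every library. CD36, a fatty acid receptor of the intestine and many other tissues, had 8 counts over the antisense-labelled group and 0 over the vector control. The antisense-labelled counts of CD36 came from libraries 2 and 4, with 0 in library 3, so the groups overlapped, as they did for FITM1, and no fold is given for either. ANGPTL4, which inhibits lipoprotein lipase, was at 0.320 to 0.389 CPM in antisense-labelled and 0.186 to 0.269 CPM in vector control libraries and did not pass (0.56, 95% interval -0.27 to 1.38, edgeR adjusted p = 0.224). At this depth 3 counts over a group corresponded to 0.0211 CPM in the antisense-labelled group and 0.0212 CPM in the vector control, for counting error only.

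Each member was also set against its surroundings in the gene order. A median over the 50 genes on either side, counting genes whose mean log2 CPM reached 3, could be had for 22 of the 34 tested members and ranged from -0.40 to 0.35. Of 14 called members with such a median, 12 kept their direction after it was subtracted. MOGAT2, which the low-count filter favoured, is in both of these counts and is no support for either. FITM2 (-0.38) stood at the level of its neighbours, whose median was -0.39, and AGPAT1 (-0.24) fell by less than its neighbours, whose median was -0.36. LPIN3 (-0.80) lay where neighbours had a median of -0.40, which leaves -0.40. LIPC (1.84) lay where the median was 0.35, which leaves 1.49, and MGLL (5.17) where it was 0.12. The part of the neighbourhood in these changes was not tested.

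**Figure D4:**
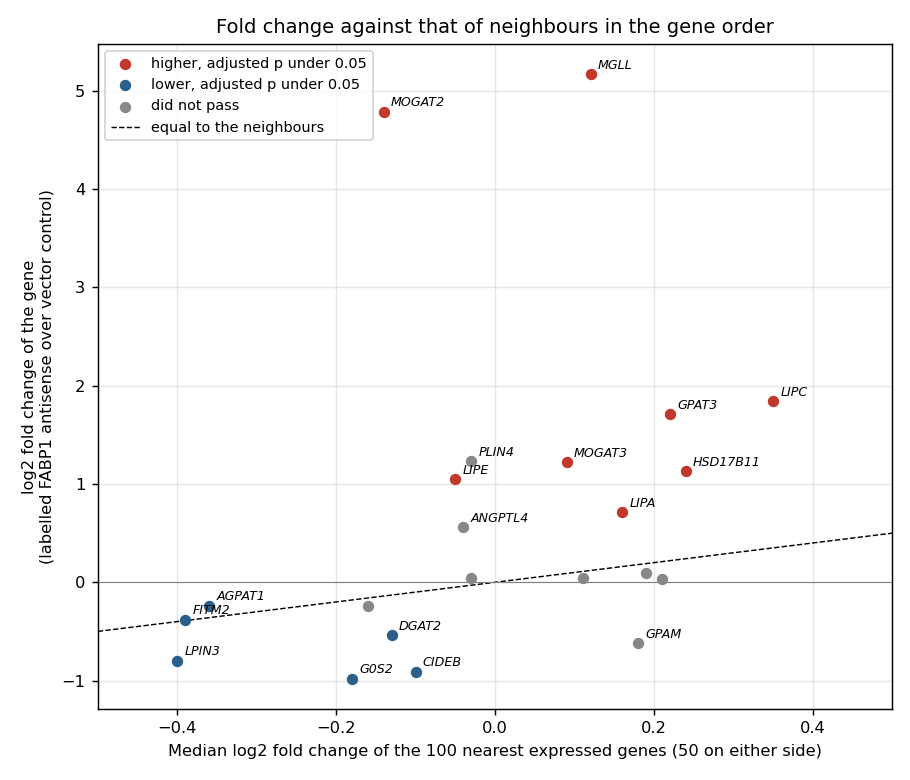
Log2 fold change of each member (y axis, antisense-labelled over vector control) against the median of its neighbours in the gene order (x axis), with the dashed line where both are equal. FITM2 and AGPAT1 lie near the dashed line, and MGLL lies far above it.

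Of 72 other genes of glycerolipid turnover and droplets found in the table, 65 were tested, of which 26 rose, 16 fell and 23 did not pass, with a median log2 fold change of 0.17. Those called were 64.6%, against 55.0% of all tested genes, and nothing particular to the lists is read from this. Among 21 tested genes of glycerol supply and glycerolipid enzymes 9 rose and 5 fell, among 14 other lipid hydrolases 5 rose and 4 fell, and among 30 other droplet proteins 12 rose and 7 fell. LPCAT2, a lysophospholipid acyltransferase also found on droplets, was at 30.3 ± 2.35 CPM in antisense-labelled and 7.88 ± 1.49 CPM in vector control libraries (log2 fold change 1.95, SE 0.13). PLPP2, a lipid phosphate phosphatase, was at 21.7 ± 1.40 CPM in antisense-labelled and 8.39 ± 1.69 CPM in vector control libraries (1.37, SE 0.14). NCEH1, a hydrolase of cholesteryl and ether lipids, averaged 79.9 ± 1.51 CPM in antisense-labelled and 37.7 ± 3.23 CPM in vector control libraries (1.09, SE 0.08). CAV1, the caveolin that can also sit on droplets, averaged 4.72 ± 0.549 CPM in antisense-labelled and 0.407 ± 0.0892 CPM in vector control libraries (3.55, SE 0.22). PNLIPRP2, a pancreatic lipase relative, averaged 6.32 ± 0.435 CPM in antisense-labelled and 2.85 ± 0.188 CPM in vector control libraries (1.15, SE 0.13). In the other direction, LMF2, a relative of the lipase maturation factor, averaged 38.9 ± 1.68 CPM in antisense-labelled and 83.4 ± 9.31 CPM in vector control libraries (-1.10, SE 0.09). For these 6 genes the values are means with SD of 3 libraries, and each passed edgeR's test over all genes.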

How the data were processed

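PolyA RNA of 3 libraries labelled FABP1 antisense and 3 vector control libraries was sequenced (TruSeq Stranded mRNA kit, per the labels' protocols). Tools listed, per the submitters' processing notes, were HISAT2 2.1.0, StringTie 1.3.4d, Bowtie2 2.3.4.1, Trimmomatic 0.38 and bcl2fastq, with the build GRCh37 and no roles; the strand setting was not given in the sources used here. Per the file headers, the deposited values used are raw read counts by gene, not normalized by the authors. Columns matched groups only, by name, so 12 other per-library columns were not used. The labels do not say whether cultures were separate, and p-values then reflect spread among libraries that may be technical replicates.

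The test was that of edgeR 4.0.16 under R 4.3.3 (filterByExpr, TMM, quasi-likelihood test, Benjamini-Hochberg adjustment over 14640 genes, threshold 0.05), tested on simulated data. The standard error is the absolute log2 fold change over the square root of F. Levels between genes are CPM per kilobase of the median GENCODE transcript matched by RefSeq accession (41 of 42 members). Gene order came from RefSeq GRCh38.p14, without coordinates (99.7% of tested genes placed). Alternatives were DESeq2 1.42.0 (test and size factors), library size scaling, other filters, each library left out and a block on header numbers.

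Values in every library are given for members called with a log2 fold change of at least 1 in size or with a mean of at least 20 CPM in a group; the rule also takes any member under 3 counts in a group and at or above 1 CPM in the other, which none met. Some low members are also given so, a choice made after their values were seen. Other pathway genes are named when called at that size and at or above 1 in mean log2 CPM. The members and lists were chosen with earlier results of these data known.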

Additional observations from a re-analysis of the deposited data

How the results depend on the processing

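Of the 22 called members, 18 were called in the same direction in each of the 13 alternative fits that tested them (MOGAT2 was left out of the fit on a mean CPM of at least 1), and 8 of the 12 that did not pass were called in none. The others are AGPAT1, AGPAT3, AGPAT4 and LIPG, which lost their calls in some fits, and AGPAT2, DGAT1, PLIN4 and BSCL2, which gained them. MOGAT2 is among the 22 and the 18. Like PLIN4 and HSD17B13 in the fits that called them, MOGAT2 supports no count given here. Leaving out 1 library gave 11 to 14 members higher and 8 to 11 lower. Without vector control library 3 and antisense-labelled library 4 together, a fit chosen after seeing the data, 13 rose and 12 fell. Header numbers did not pair the libraries (correlations of same-numbered deviations 0.0380, -0.154 and -0.253, and only vector control library 2, 1 of 6, correlated best with its own number). The replicate block gave 11 members higher and 7 lower, and 3355 and 3306 of all genes against 4062 and 3992 without it. Signs turned near 0 when 1 library was left out: ABHD5 was at -0.01 without antisense-labelled library 4 and -0.03 without vector control library 2 (range -0.03 to 0.10), PLIN3 at -0.02 without antisense-labelled library 2 and -0.01 without vector control library 3 (range -0.02 to 0.11), and HILPDA at -0.06 without vector control library 2 (range -0.06 to 0.13). Relative to neighbours in the gene order, AGPAT1 was at 0.12 and FITM2 at 0.01. The cause of these moves was not tested. Depth limits the statements on PLIN1, PLIN5, FITM1, HSD17B13 and CD36, which did not meet the low-count filter with all libraries. HSD17B13 met it in some other fits and was called higher without vector control library 3. With 2 counts over the vector control, that call is no support for a rise.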
